A study of Mus musculus with 6 samples.

Results

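CD8+ T cells of the developing mouse lung were profiled by scRNA-seq in droplets. The unit is the unique molecular identifier (UMI), a tag that marks each captured transcript. The cells are all those that the authors' annotation assigns to the cluster of CD8+ T cells, which is separate from a cluster of CD4+/CD8+ T cells. There were 719 CD8+ T cells among 61839 cells of 34 types, and 6264 of all cells were lymphoid. The lungs came from 36 C57BL/6 pups, with 6 mice in each of 6 groups, at postnatal day (P) 3, P7 and P14 in room air (21% O2, normoxia) or in 85% O2 from birth (hyperoxia), a model of impaired alveolar development. Whole lungs were perfused and digested with enzymes, no gene was altered in any group, and T cells were not sorted. Lungs were tagged with MULTI-seq barcodes and pooled, with 3 mice of each oxygen level for an age in a pool. There were 5 pools and 6 libraries, and a pool was shared by P3 and P7 mice. No pool held P14 mice together with P3 or P7 mice, so that P14 cannot be told apart from its pools.

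CD8+ T cells recognise peptides on MHC class I through a T cell receptor (TCR) and the CD8 coreceptor, and kill infected or altered cells with perforin, granzymes and cytokines such as interferon gamma. Naive CD8+ T cells leave the thymus and recirculate through lymphoid organs under the transcription factors Lef1, Tcf7 and Foxp1 and the homing receptor Ccr7. Activated and memory cells lose part of this programme, express chemokines and cytotoxic genes and may divide. In newborn mice the peripheral T cell pool is small and is still being filled from the thymus.

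The label was first checked against its markers. Cd8a or Cd8b1, which encode the chains of the CD8 coreceptor, had a UMI in 486 of the 719 cells (67.6%). In cells thinned to 1000 UMIs, Cd8b1 was found in 33.4% of CD8+ T cells, in 2.10% of CD4+ T cells and in 0.0881% of B cells. Median depths were 3646 UMIs in CD8+ T cells, 2726 in CD4+ T cells and 2181 in B cells. Cd3e, a chain of the TCR complex, was found in 23.1% of the thinned CD8+ T cells and in 23.7% of CD4+ T cells. Cd4 was found in 1.1% and Foxp3, which defines regulatory T cells, in 0.1% of the thinned CD8+ T cells.

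The cluster also held cells with transcripts of other lymphocytes. A UMI of Trdc or Tcrg-C1 (constant regions of the gamma delta TCR) or of Klrb1c or Ncr1 (NK receptors) was found in 153 cells (21.3%). Among the 233 cells without a UMI of Cd8a or Cd8b1, Trdc was found in 32.6% and the NK signalling adaptor Tyrobp in 30.0%, against 5.76% and 8.64% of the cells with one. The naive homing receptor Ccr7 had the opposite distribution, with 25.3% against 74.1%. Median depths of these cells were 3294 and 3814.5 UMIs.

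At P3 the data went against the label. Cd8a or Cd8b1 was found in 36.1% of the normoxic cells (95% exact binomial interval 20.8 to 53.8%, of 36 cells) and in 20.0% of the hyperoxic cells (6.83 to 40.7%, of 25 cells), and the gamma delta and NK transcripts were found in 61.1% and 60.0%. At P7 these transcripts were found in 25.0% and 23.2% of cells, and at P14 in 11.1% of normoxic and 19.2% of hyperoxic cells. The expression of the P3 cells is therefore not compared, and the shares, the cycling cells and the counts of called genes were also computed without the cells that have these transcripts. The intervals cover counting error only.

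**Figure D1:**
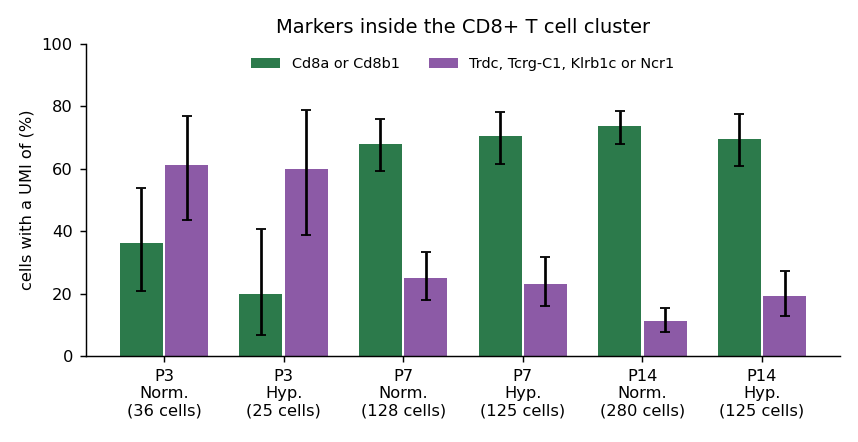
Percent of the cells of the CD8+ T cell cluster with a UMI of Cd8a or Cd8b1 (green) or of Trdc, Tcrg-C1, Klrb1c or Ncr1 (purple) in each group of age and oxygen level (Norm., normoxia; Hyp., hyperoxia). Bars are all cells of a group and error bars are 95% exact binomial intervals; the purple bars exceed the green bars only at P3.

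The cluster was not uniform. Among cells thinned to 1000 UMIs, 218 had a UMI of Ccl5, a chemokine that memory and effector cells store, and 479 had none. Cells with Ccl5 more often had Nkg7, a protein of cytotoxic granules (59.2% against 32.8%), Ifng (12.4% against 1.67%), S100a6 (38.5% against 12.3%) and the memory-associated receptor subunit Il2rb (45.4% against 23.2%). They less often had Ccr7 (16.5% against 37.8%), Lef1 (22.0% against 38.4%) and Dapl1, a gene of naive T cells (1.38% against 9.81%). Trdc followed the same split, with 19.7% against 2.51%. The coreceptor genes were found less often in the cells with Ccl5, with 16.1% against 21.7% for Cd8a and 22.0% against 38.6% for Cd8b1. These are descriptions of cells that were clustered on the same genes, and carry no test.

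Expression was compared over mice, after the UMIs of the CD8+ T cells of a mouse were summed. Mice with at least 10 such cells entered, which were 4 normoxic and 5 hyperoxic mice at P7 and 6 and 6 at P14. The sums held between 50147 and 300269 UMIs from 10 to 80 cells. At P14 the normoxic mice gave 31 to 80 cells and the hyperoxic mice 15 to 27 cells. No cell barcode was shared between libraries among CD8+ T cells, whereas 394 barcodes (0.641%) were shared among all cells. Levels per gene are counts per 1e6 UMIs of the genes tested (CPM), scaled by TMM, and a gene was called at a Benjamini-Hochberg adjusted p below 0.05 in edgeR's quasi-likelihood test if 10% or more of the cells of either group had a UMI of it.

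CD8+ T cells were few at P3 and more frequent at P14. They made up 0.357% ± 0.227 (SD, n = 6) of the cells of a normoxic mouse at P3, 1.28% ± 0.915 at P7 and 2.09% ± 0.491 at P14. In hyperoxia the shares were 0.253% ± 0.172, 1.81% ± 1.27 and 1.40% ± 0.399 (n = 6 each). The highest hyperoxic P7 share, 4.0%, came from the mouse with the fewest cells, with 5 CD8+ T cells among 125. In 1 hyperoxic P3 mouse 0 of 2084 cells were CD8+ T cells, which allows a share of up to 0.144%. The P3 and P14 ranges did not overlap at either oxygen level, and the P3 shares include the many cells without a Cd8a or Cd8b1 UMI.

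P14 shares were 5.87 times the P3 shares in normoxia and 5.52 times in hyperoxia, with an adjusted p of 0.0232 each in two-sided exact permutation tests. As percent of T cells, the means went from 20.7% to 23.5% in normoxia and from 13.4% to 25.4% in hyperoxia, and neither difference passed. Without the cells with gamma delta or NK transcripts the P14 shares of all cells were 10.8 and 10.3 times the P3 shares. The unadjusted p of 0.00216 for the shares of all cells is the smallest that 6 against 6 mice can give. Among the tests of all 34 types by age, 15.2% passed. P7 shares were 7.17 times the P3 shares in hyperoxia (adjusted p = 0.0232, exact permutation test), and as percent of T cells the difference did not pass. Without the cells with gamma delta or NK transcripts they were 11.9 times the P3 shares, or 10.7 times with the transcripts read in thinned cells. The difference in normoxia missed the threshold as percent of all cells (adjusted p = 0.0581, exact permutation test). P7 mice differed by pool: means in normoxia were 0.595% in the pool shared with P3 mice and 1.97% in the other pool, and in hyperoxia 0.872% and 2.75%. In the shared pool the P3 means were 0.400% in normoxia and 0.309% in hyperoxia, so that the ages lay closer there. The tests by age did not use the pool, and no test by age was made within it. P14 and P7 shares did not pass a test at either oxygen level (adjusted p = 0.262 and 0.692, exact permutation tests).

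Hyperoxic mice had a lower share than normoxic mice at P14, by 0.696 percentage points, but this did not pass the correction over 34 types and 3 ages (p = 0.0281, adjusted p = 0.106, two-sided exact permutation test). The 6 normoxic mice ranged from 1.65 to 2.75% and the hyperoxic mice from 0.991 to 2.13%, so the ranges overlapped. The direction turned under other denominators: CD8+ T cells were 12.3% of lymphoid cells in normoxia and 12.9% in hyperoxia, and 23.5% and 25.4% of T cells. Without the cells with gamma delta or NK transcripts the means were 1.87% and 1.12% (adjusted p = 0.0442, exact permutation test). Depth differed between these groups, with median UMIs per cell of 2939 in normoxia and 3742 in hyperoxia, and its part in this result was not tested. With the transcripts read in cells thinned to 1000 UMIs the means were 1.85% and 1.23%, and the difference did not pass (adjusted p = 0.0662, exact permutation test). The share was lower in both P14 pools, by 0.532 and 0.860 points. At P3 and P7 the adjusted p was 0.652 each (exact permutation tests), and 13.7% of the tests of all types by oxygen passed.

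Relative to the other main T cell type the shift went the other way. CD8+ T cells were 27.3% ± 4.83 of CD4+ and CD8+ T cells in normoxia at P14 and 36.4% ± 7.37 in hyperoxia (SD, n = 6). The difference of 9.10 points did not pass the correction over 3 ages (p = 0.0346, adjusted p = 0.104, two-sided exact permutation test). It was 13.2 points in one P14 pool and 5.05 points in the other. At P3 the shares were 26.3% and 17.7%, and at P7 31.8% and 28.5% (adjusted p = 0.334 and 0.346, exact permutation tests).

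**Figure D2:**
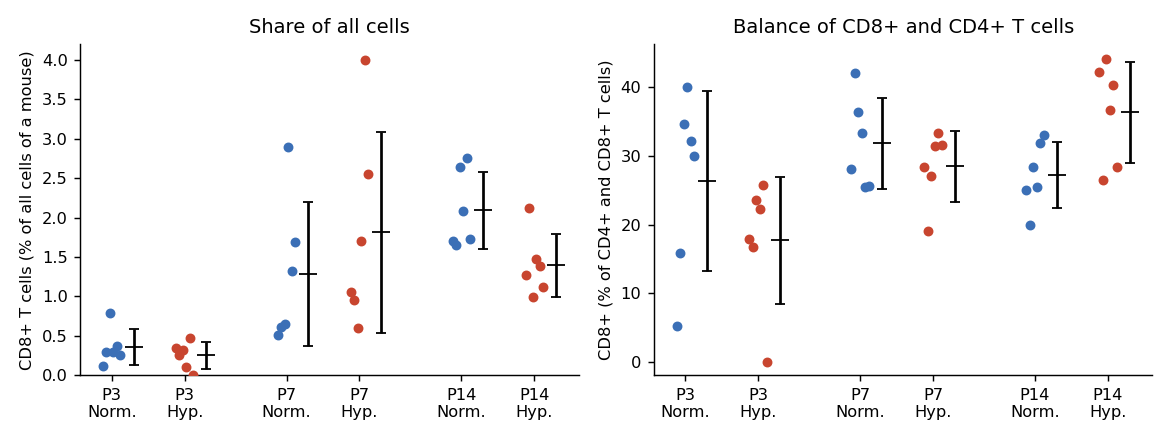
CD8+ T cells as percent of all cells of a mouse (left) and as percent of its CD4+ and CD8+ T cells (right), by age and oxygen level (Norm., normoxia, blue; Hyp., hyperoxia, red). Each point is a mouse and the bars are mean ± SD of 6 mice; at P14 the hyperoxic points lie lower on the left and higher on the right, with overlapping ranges.

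At P14, cycling cells of the cluster were more frequent in hyperoxia, a difference that did not pass without the cells with gamma delta or NK transcripts. A cell was counted as cycling with UMIs of at least 2 of 10 genes of late S phase and mitosis, such as Mki67, the proliferation marker Ki-67, after every cell was thinned to 1000 UMIs. The percent of cycling cells per normoxic mouse was 0 at the lowest, 0.0 at the median and 6.52 at the highest, and per hyperoxic mouse 0, 9.0 and 20.0. Means were 1.64% ± 2.74 and 10.6% ± 7.29 (SD, n = 6 each), with an adjusted p of 0.0390 in a two-sided exact permutation test and of 0.04 within pools. In 5 of the 6 hyperoxic mice the percent exceeded every normoxic mouse. The 4 normoxic mice with 0 cycling cells allow a share of up to 3.95 to 9.09%, and the hyperoxic mouse with 0 of 19 allows up to 15.8%.

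Cells with gamma delta or NK transcripts were on average 9.67% of the unthinned cells per normoxic mouse and 19.0% per hyperoxic mouse (p = 0.0952, exact permutation test over 6 against 6 mice). In cells thinned to 1000 UMIs they were 7.07% ± 4.75 and 8.56% ± 5.97 (SD, n = 6 each, p = 0.645 in an exact permutation test). Thinning also lowers the chance of finding these sparse transcripts, so this test cannot show that the groups held equal shares of such cells. The summed CPM of 6 NK markers had medians of 257 in normoxia and 610.5 in hyperoxia, and that of 4 gamma delta T markers 125 and 170. Without the cells that had these transcripts before thinning, the mean percents of cycling cells were 1.86% ± 3.17 and 10.5% ± 7.94 (SD, n = 6 each; p = 0.0303, adjusted p = 0.0606, exact permutation test). With the transcripts read in thinned cells they were 1.81% and 9.62%, with the same p and adjusted p.

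Within pools the means were 0.0% and 10.0% in one and 3.29% and 11.1% in the other. Over all cells of a group, 4 of 268 normoxic and 12 of 122 hyperoxic cells were cycling. CD8+ T cells of hyperoxic P14 mice were also deeper, with median UMIs per cell of 3640 ± 279 against 3004 ± 261 in normoxia (SD over 6 mice each, adjusted p = 0.013, exact permutation test), the reason for the thinning. Without thinning, the shares were 2.64% and 17.0%.

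At P7 the percent of cycling cells was 6.53% ± 9.53 in normoxia and 6.17% ± 7.08 in hyperoxia (SD, n = 6 each; adjusted p = 0.957, exact permutation test), and zeros in mice of 5 to 17 cells allow shares of 17.6 to 60.0%. Its highest value, 25.0%, came from a normoxic mouse with 16 thinned cells, 4 of them cycling. Without the cells with gamma delta or NK transcripts that mouse kept 7 cells, 1 of them cycling. Hyperoxic means were lower than normoxic means in one P7 pool (3.70% against 8.33%) and higher in the other (8.63% against 4.73%).

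Other lymphocytes at P14 are given for comparison, without a test. Over all thinned cells of a group, the percent of cycling cells in normoxia and hyperoxia was 0.271 and 4.33 in CD4+ T cells, 6.36 and 28.4 in regulatory T cells, 3.77 and 15.8 in NK cells, 9.68 and 7.55 in gamma delta T cells and 0.880 and 1.0 in B cells.

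**Figure D3:**
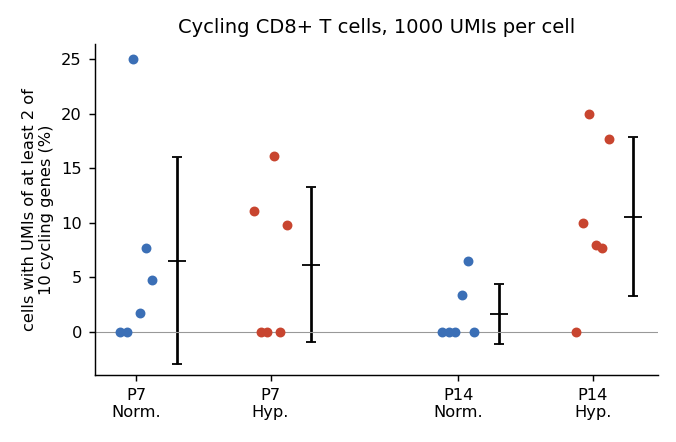
Percent of the CD8+ T cells of a mouse, thinned to 1000 UMIs per cell, that had UMIs of at least 2 of 10 cycling genes, at P7 and P14 (Norm., normoxia, blue; Hyp., hyperoxia, red). Each point is a mouse and the bars are mean ± SD of 6 mice; at P14, 5 of 6 hyperoxic mice lie above every normoxic mouse.

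At P14 the summed expression of the CD8+ T cell cluster differed between oxygen levels. Whether the cells changed, or the mix and depth of the cells summed, was not tested. Called genes included 12 of 16 tested genes of mitosis and 10 of 21 of the S100, galectin and cytoskeleton list, all higher, and 10 of 24 genes of naive and quiescent T cells, all lower. The lists were chosen with earlier results of these data known, so these counts are descriptions and no independent support. Of 2256 genes tested, 121 were called (5.36%), 75 higher (3.32%) and 46 lower (2.04%) in hyperoxia. The CPM of normoxic and hyperoxic mice did not overlap for 58 genes (2.57%). With the pool as a block 192 genes were called, 118 higher and 74 lower, and the 121 genes were among them, whereas DESeq2 called 83 higher and 28 lower. The count fell to 13 in cells thinned to 1000 UMIs. It fell to 8 without cycling cells, here those with an unthinned UMI of Mki67, Top2a, Ube2c, Cenpf, Birc5 or Cdk1. The count ranged from 66 to 154 when 1 mouse was left out. It was 70, 72 and 69 without normoxic P14 mice 1, 2 and 3 and 69 and 66 without hyperoxic P14 mice 2 and 5. Of the 121 genes, 49 could be tested in thinned cells, all in the same direction, and their median size went from 0.63 to 0.50. Without cycling cells 88 could be tested, 86 in the same direction, and their median size went from 0.74 to 0.55.

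Of 16 mitosis genes tested, 12 were higher and none lower, and the median log2 fold change of the list was 1.81, against -0.02 over all genes. Other members had too few UMIs for the filter. A gene sparse in normoxic P14 mice could pass it through the groups where it was high. The count and the median therefore cannot be read as values of the whole list. In cells thinned to 1000 UMIs only 4 of the 12 could be tested and none was called, with log2 fold changes of 1.34 for Stmn1, 0.90 for Hmgb2, 0.26 for Tubb5 and 0.13 for H2afz. Stmn1, which encodes the microtubule-destabilising protein stathmin, ranged from 48.4 to 183 CPM in normoxic mice with a median of 77.4, and from 472 to 722 CPM in hyperoxic mice with a median of 552. The groups did not overlap, and Stmn1 rose by 2.48 ± 0.36 (SE) on the log2 scale (adjusted p = 5.3e-05, edgeR). Ube2c, the ubiquitin-conjugating enzyme of mitotic exit, was between 0.0 and 24.6 CPM in normoxic mice (median 8.04, 7 UMIs in all) and between 48.5 and 664 CPM in hyperoxic mice (median 155). Its fitted log2 fold change was 4.58 ± 0.74 (adjusted p = 0.00033, edgeR).

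Mki67 was between 0.0 and 123 CPM in normoxia and between 115 and 538 CPM in hyperoxia, so that the lowest hyperoxic mouse lay below the highest normoxic mouse (log2 fold change 2.49 ± 0.63). Top2a, the topoisomerase of replicating DNA, ranged from 13.6 to 54.2 and from 76.6 to 559 CPM without overlap (2.89 ± 0.59). Cenpf and Birc5, proteins of the kinetochore and the chromosomal passenger complex, rose by 3.34 ± 0.82 and 2.51 ± 0.61, and the histone H2afz by 0.51 ± 0.15.

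Of 14 DNA replication genes tested, 4 were higher, with a list median of 1.14, and none of the 4 could be tested in thinned cells. Other members of this list were not tested, and the same limit of the filter holds for it. Pclaf, a PCNA-binding factor, was between 0.0 and 16.1 CPM in normoxia (median 8.77, 6 UMIs in all) and between 128 and 435 CPM in hyperoxia (median 202). Its groups did not overlap, and its fitted log2 fold change was 4.45 ± 0.64 (adjusted p = 5.3e-05, edgeR). Lig1, the ligase of lagging strand synthesis, rose by 3.74 ± 0.67, Pcna, the sliding clamp, by 1.42 ± 0.34, and the helicase subunit Mcm6 by 1.19 ± 0.35.

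The promoters of 3 of these genes are shown because the cell cycle genes moved together. Each sequence covers the 250 bases before the start site in the RefSeq table for GRCm38.p6, the build of the authors' mm10 reference, 5′ to 3′ on the strand of the gene. Capitals mark the letters CCAAT and TTTGAA, on either strand (ATTGG and TTCAAA).
Ube2c, chr2:164769679-164769928, plus strand: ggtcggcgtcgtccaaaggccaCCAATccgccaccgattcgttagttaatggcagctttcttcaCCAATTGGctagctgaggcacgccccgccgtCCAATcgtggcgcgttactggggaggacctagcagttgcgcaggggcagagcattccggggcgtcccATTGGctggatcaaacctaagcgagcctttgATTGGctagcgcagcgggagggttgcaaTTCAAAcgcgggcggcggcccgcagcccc
Pclaf, chr9:65890073-65890322, plus strand: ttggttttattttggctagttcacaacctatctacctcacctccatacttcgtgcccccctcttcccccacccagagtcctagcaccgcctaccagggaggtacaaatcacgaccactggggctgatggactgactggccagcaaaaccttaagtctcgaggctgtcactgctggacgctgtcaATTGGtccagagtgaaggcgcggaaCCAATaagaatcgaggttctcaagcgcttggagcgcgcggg
Top2a, chr11:99024190-99024439, minus strand: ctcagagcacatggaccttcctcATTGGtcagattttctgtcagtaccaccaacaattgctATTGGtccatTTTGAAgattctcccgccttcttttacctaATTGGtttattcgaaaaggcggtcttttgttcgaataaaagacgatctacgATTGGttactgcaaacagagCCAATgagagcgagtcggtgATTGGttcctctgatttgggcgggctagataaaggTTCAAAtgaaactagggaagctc

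Of the 16 called genes of the mitosis and DNA replication lists, 14 had a promoter in the table. CCAAT or its complement was found in 11 of them (78.6%), against 33.8% of all 32851 promoters of the same length. TTTGAA or its complement was found in 6 of the 14 (42.9%), against 16.0% of all promoters. TTTGGCGC was found in 1 gene, Mcm6 (7.14%, against 0.417%), and TTTCCCGC in 0 (against 0.895%). The matches are letters in a window and not sites, and the motifs were not tested.

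Of 21 genes of the S100, galectin and cytoskeleton list, 10 were higher at P14 and none lower, with a median of 0.75. Lgals1, which encodes a secreted galectin that binds glycans on T cells, ranged from 109 to 352 CPM in normoxia (median 306) and from 599 to 1159 CPM in hyperoxia (median 940.0). Every hyperoxic mouse was above every normoxic mouse, and the log2 fold change of 1.74 ± 0.21 had the lowest adjusted p of the named genes (3.7e-06, edgeR). Lgals1 was called in each of the 21 fits that left out a mouse, and within pools its means were 210 and 1000 CPM and 318 and 826 CPM.

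S100a6, a calcium-binding protein, ranged from 129 to 412 CPM and from 497 to 1246 CPM without overlap (1.56 ± 0.31, adjusted p = 0.0034, edgeR). The intermediate filament Vim rose by 0.98 ± 0.21, the LIM protein Crip1 by 0.77 ± 0.18, the annexin Anxa2 by 1.43 ± 0.30, S100a4 by 2.04 ± 0.54 and the actin Actg1 by 0.75 ± 0.14. In CD4+ T cells at P14, Actg1 was called as well (0.58 ± 0.12, adjusted p = 0.0037, edgeR), whereas Lgals1 had a log2 fold change of 0.78 ± 0.25 there (adjusted p = 0.204) and of 0.34 ± 0.35 in B cells (adjusted p = 0.834), both from edgeR fits of those cells.

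Of 24 genes of naive and quiescent T cells tested, 10 were lower in hyperoxia and none higher, and the median of the list was -0.65. None of the 10 was called in thinned cells or without cycling cells, and all 10 kept their direction without cycling cells, with log2 fold changes from -0.27 ± 0.13 (Btg1) to -1.55 ± 0.43 (Pik3ip1). In thinned cells 7 of the 10 could be tested, and their log2 fold changes lay between -0.36 (Foxp1) and -0.81 (Lef1). Lef1 ranged from 571 to 713 CPM in normoxic mice (median 645) and from 311 to 442 CPM in hyperoxic mice (median 385), without overlap, and fell by 0.75 ± 0.18 on the log2 scale (adjusted p = 0.016, edgeR). Foxp1 fell by 0.87 ± 0.17, with 1 hyperoxic mouse at 642 CPM above the lowest normoxic mouse at 618 CPM. Pik3ip1, an inhibitor of PI3 kinase, fell by 1.59 ± 0.35 and Btg1, an anti-proliferative factor, by 0.54 ± 0.13.

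Klf2, which controls exit from lymphoid organs, fell by 0.64 ± 0.18, Bcl2, a survival factor, by 0.86 ± 0.24, Txnip, which restrains glucose uptake, by 0.97 ± 0.23 and Dapl1 by 1.55 ± 0.41. Other defining genes of naive cells missed the threshold: log2 fold changes were -0.77 ± 0.25 for Ccr7 (adjusted p = 0.0697), -0.58 ± 0.19 for Tcf7 (adjusted p = 0.0585, or 0.0466 with the pool as a block) and -0.65 ± 0.28 for Il7r, the receptor of the survival cytokine IL-7 (edgeR).

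**Figure D4:**
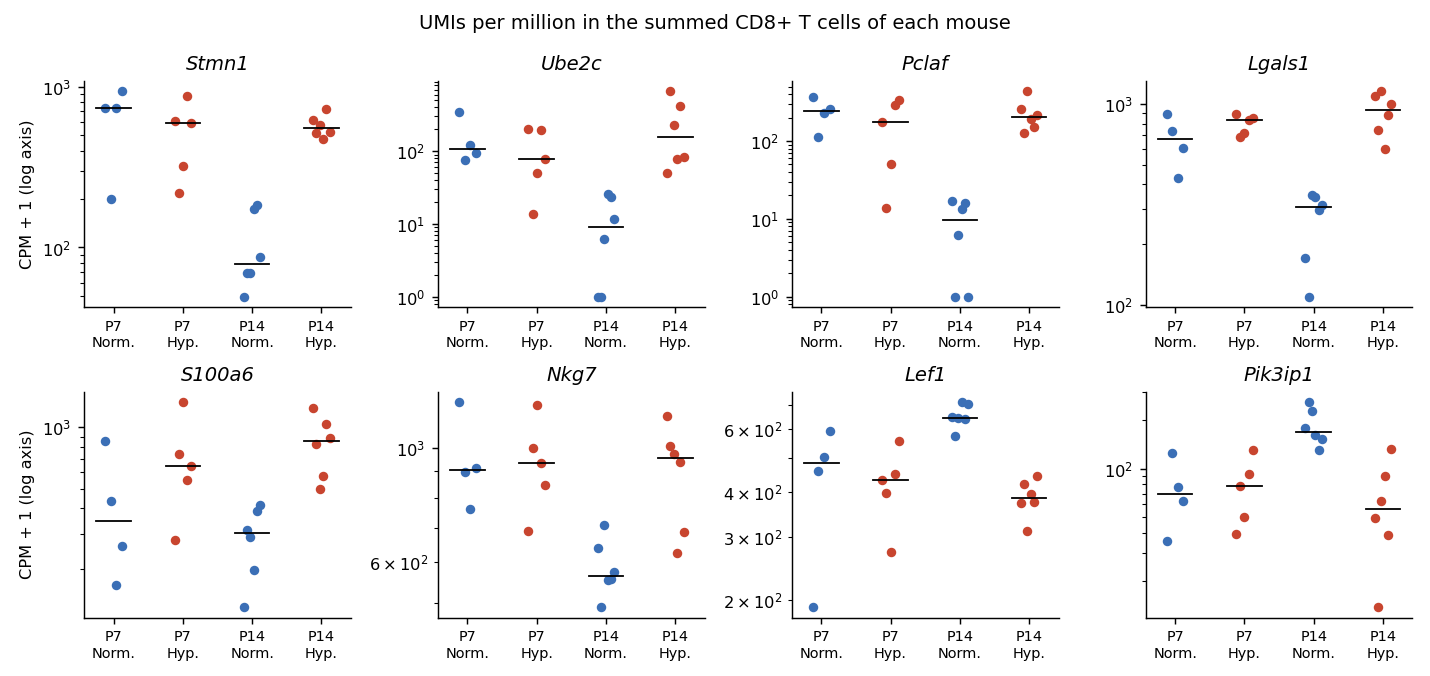
CPM of the tested genes, TMM scaled, in the summed CD8+ T cells of each mouse, on log axes after 1 was added. The genes are Stmn1, Ube2c, Pclaf and Lgals1 (top) and S100a6, Nkg7, Lef1 and Pik3ip1 (bottom). Points are mice (Norm., normoxia, blue, 4 at P7 and 6 at P14; Hyp., hyperoxia, red, 5 and 6) and lines are medians; the P14 normoxic mice stand apart from the hyperoxic mice of that age for Stmn1, Ube2c, Pclaf, Lgals1, S100a6 and Lef1.

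Of 16 cytotoxic and memory genes tested, 3 were higher and none lower, with a median of 0.29. Nkg7 ranged from 490 to 708 CPM in normoxia and from 624.7 to 1149 CPM in hyperoxia, and rose by 0.59 ± 0.16 (adjusted p = 0.026, edgeR). The chemokine Xcl1, which attracts cross-presenting dendritic cells, was between 0.0 and 32.5 CPM and between 16.2 and 216 CPM and rose by 2.91 ± 0.81. The interferon-inducible transcript AW112010 rose by 1.12 ± 0.24. With only the cells that had a UMI of Cd8a or Cd8b1, AW112010 was still called, whereas Nkg7 and Xcl1 were not among the called genes. The part of cells with NK transcripts in these values was not tested.

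Ccl5 had a log2 fold change of -0.13 ± 0.35, Cd44 of 0.15 ± 0.30, Il2rb of 0.10 ± 0.18, Gzmb (granzyme B) of 1.73 ± 0.79 and Ifng of 1.82 ± 0.83, none of which passed (adjusted p between 0.206 and 0.885, edgeR). Eomes and Cxcr3 were too sparse to be tested. Of the 9 inhibitory receptor genes none had enough UMIs to be tested, and of 19 genes of TCR signalling none was called. Cd8a and Cd8b1 had log2 fold changes of -0.45 ± 0.26 and -0.51 ± 0.20, and Cd3e of 0.05 ± 0.18.

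Of 19 immediate early genes, Fosb, Nfkbid and the TCR-induced nuclear receptor Nr4a1 were higher (1.75 ± 0.36, 2.06 ± 0.56 and 1.13 ± 0.31). Of 12 interferon response genes, Ifi27l2a and the immunoproteasome subunit Psmb8 were higher (0.93 ± 0.26 and 0.57 ± 0.16). Ifi27l2a was also called in CD4+ T cells (0.94 ± 0.20) and B cells (1.36 ± 0.20). Of 10 glycolysis genes, Pgk1, Pgam1 and Ldha were higher, by 0.70 to 1.10, and of 29 nuclear genes of oxidative phosphorylation 4 were higher, by 0.58 to 0.71. Txn1 (thioredoxin) was the 1 gene called of 11 of oxidative stress (0.96 ± 0.18). None of 3 p53 targets, 9 heat shock genes or 7 adhesion and chemokine receptor genes was called. Of the called genes of these lists, Ifi27l2a alone was also called without cycling cells, and none was called in thinned cells.

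Cycling cells moved with these results, as did cells with gamma delta or NK transcripts before thinning. Without cells that had a UMI of Mki67, Top2a, Ube2c, Cenpf, Birc5 or Cdk1, 8 genes were called at P14: AW112010, Actg1, Cd52, Crip1, Ifi27l2a, Lgals1, Nkg7 and Vim. Lgals1 then had a log2 fold change of 1.87 ± 0.29, Nkg7 of 0.73 ± 0.16, S100a6 of 1.23 ± 0.36 (adjusted p = 0.122) and Lef1 of -0.59 ± 0.15 (adjusted p = 0.0937, edgeR). Of the 88 genes of the 121 that could be tested in these cells, 86 kept their direction, the exceptions being H2afz and Tubb5. With only the cells that had a UMI of Cd8a or Cd8b1, 98 of the 121 were tested, all 98 kept their direction and 33 were called.

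Without cells that had a UMI of Trdc, Tcrg-C1, Klrb1c or Ncr1, 114 were tested, all 114 kept their direction and 44 were called. The summed CPM of 6 NK markers ranged from 73.8 to 388 in normoxic P14 mice (median 257) and up to 1635 in hyperoxic P14 mice (median 610.5), whose lowest value lay within the normoxic range, and that of 4 gamma delta T markers, with Il17a at 0, from 36.9 to 226 and from 75.1 to 383. The part of these transcripts in the other results was not tested. The sum of 4 endothelial markers did not overlap between the groups, with 136 to 259 CPM in normoxia and 32.7 to 128 CPM in hyperoxia, and the B cell marker Ighm fell by 0.77 ± 0.22, beside 8 B cell markers that summed to 418 to 2517 and 228 to 507 CPM. Of 3 CD4 T cell markers the summed CPM ranged from 0.0 to 52.5 and from 0.0 to 76.6. Both P14 groups held 3 mice with Xist and 3 with Y-linked transcripts.

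At P7 no gene was called between oxygen levels (0.0% of 2256), and DESeq2 called 0 as well. An unadjusted p below 0.05 was found for 71 genes. The CPM of the groups did not overlap for 19 genes (0.842%). List medians were -0.09 for mitosis, -0.07 for naive and quiescent genes, 0.09 for the S100, galectin and cytoskeleton list and -0.44 for the 3 tested p53 targets, and no member of any list was called. Stmn1 ranged from 199 to 933 CPM in the 4 normoxic mice (median 732) and from 217 to 873 CPM in the 5 hyperoxic mice (median 595), and Lgals1 from 426 to 898 and from 689 to 891 CPM (log2 fold change 0.25 ± 0.22). S100a6 had a log2 fold change of 0.56 ± 0.35 and Lef1 of 0.03 ± 0.21.

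Haemoglobin differed among the P7 mice. Hbb-bs, the adult beta globin of red blood cells, stood at 17.3, 300.5, 8439 and 13650 CPM in the normoxic mice and between 24.6 and 299.8 CPM in the hyperoxic mice. It was not called at P7 (adjusted p = 0.165), but with the pool as a block 4 genes were, the haemoglobin genes Hba-a1, Hba-a2, Hbb-bt and Hbb-bs, all lower in hyperoxia (adjusted p = 0.0357 for Hbb-bs, edgeR). Reads of these near-identical genes may be split among them. The normoxic P7 mouse with most CD8+ T cells (61) had neither Xist nor Y-linked transcripts at the level of the mice that carried them, while 1 of the others had Xist and 2 had Y-linked transcripts, against 1 and 4 in the hyperoxic mice.

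The effect of hyperoxia was larger at P14 than at P7 for 4 genes of 2256 (0.177%), and smaller for none: Ube2c (difference of log2 fold changes 4.92 ± 0.97), Pclaf (4.55 ± 0.78), Stmn1 (2.61 ± 0.48) and Lgals1 (1.49 ± 0.30), with adjusted p between 0.0037 and 0.013 (edgeR). Top2a missed the threshold for this difference (3.09 ± 0.76, adjusted p = 0.0572, or 0.0413 with the pool as a block), as did Mki67 (2.44 ± 0.83). Lef1 (-0.78 ± 0.28) passed with the pool as a block alone (adjusted p = 0.0315, edgeR), when 21 genes were called, 18 higher and 3 lower. No gene was called for this difference without cycling cells, with only the cells with a Cd8a or Cd8b1 UMI, or without the cells with gamma delta or NK transcripts, nor in thinned cells or in mice with at least 20 cells. Leaving out 1 mouse gave 2 to 26 genes, with 2 without normoxic P7 mouse 3 and 26 without normoxic P7 mouse 4. Within P7 the pools went opposite ways: Lgals1 was at 898 CPM in the 1 normoxic mouse and 765 CPM in 3 hyperoxic mice of one pool, and at 587 and 845 CPM in the other.

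Over P7 and P14 together, with age as a covariate, 9 of 1978 genes were called (0.455%), 6 higher (0.303%) and 3 lower (0.152%). Lgals1 (1.03 ± 0.20), S100a6 (1.12 ± 0.25), Fosb (1.30 ± 0.29), Ifi27l2a (0.91 ± 0.21), the ATP synthase subunit Atp5j (0.53 ± 0.11, but -0.0038 and not called in thinned cells) and the mitochondrial ribosomal protein Mrps21 (1.02 ± 0.21) were higher. Btg1 fell by 0.48 ± 0.09, Arhgap45 by 0.61 ± 0.12 and Hbb-bs by 5.03 ± 0.97. Hbb-bs was high in 2 normoxic P7 mice (8439 and 13650 CPM) and 1 normoxic P14 mouse (2539 CPM), and the sum of 5 erythroid markers at P14 had a median of 0.0 CPM in normoxia and 22.1 CPM in hyperoxia. Without normoxic P7 mouse 3, the only normoxic mouse of its pool at this age with enough cells, 86 genes were called, and with the pool as a block 14.

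In normoxic CD8+ T cells, P14 differed from P7 by 294 of 2256 genes (13%), with 145 higher (6.43%) and 149 lower (6.6%) at P14. Leaving out 1 mouse gave 104 to 290 genes, with the fewest without normoxic P7 mouse 3. Depth differed between these groups, with a median over mice of 5352.5 UMIs per cell at P7 and 2986.5 at P14, and in cells thinned to 1000 UMIs 9 genes were called. The P14 normoxic mice also enter the comparison of oxygen levels at P14, so the results are not independent, and each comparison is given by its own values. Of 24 naive and quiescent genes 15 were higher at P14, with a list median of 0.77 against 0.03 over all genes. Ccr7 rose by 0.92 ± 0.27, from 328 to 487 CPM at P7 to 594 to 1075 CPM at P14 without overlap, Txnip by 1.33 ± 0.24, Il7r by 1.02 ± 0.31, Foxp1 by 0.77 ± 0.18 and S1pr1, the receptor of lymphoid egress, by 0.77 ± 0.21. The chemokine receptor Cxcr4 rose by 1.43 ± 0.30.

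Of 16 mitosis genes 11 were lower at P14, among them Ube2c (-3.77 ± 0.83), Top2a (-2.77 ± 0.60) and Stmn1 (-2.58 ± 0.37), and of 14 replication genes 4 were lower, among them Pclaf (-4.52 ± 0.64) and Rrm2 (-3.28 ± 0.82). Of 16 memory and effector genes 5 were lower: Gzma (granzyme A, -3.20 ± 0.80, but 1.08 and not called without the cells with gamma delta or NK transcripts), Xcl1 (-3.10 ± 0.78), Cd160 (-1.39 ± 0.42), Nkg7 (-0.69 ± 0.17) and Ctsw (-0.57 ± 0.18). The NK receptor gene Klre1 fell by 2.32 ± 0.57 and Lgals1 by 1.33 ± 0.22.

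Cells of other kinds moved with this comparison too. NK markers summed to 258 to 1864 CPM at P7 and 73.8 to 388 CPM at P14 in normoxia. Without the cells with gamma delta or NK transcripts 39 genes were called, and without cycling cells 7. Scgb1a1, a secretory protein of club cells, rose by 0.98 ± 0.18 and was found in 56.5% of thinned CD8+ T cells and 65.2% of thinned B cells. These cells are not known to express Scgb1a1, and the source of the transcript, such as free RNA, was not tested.

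In hyperoxic CD8+ T cells 54 genes differed between P14 and P7 (2.39%), 24 higher (1.06%) and 30 lower (1.33%). The median UMIs per cell were 5139 ± 523 at P7 (SD, 5 mice) and 3640 ± 279 at P14 (6 mice), and 6 genes were called in thinned cells and 3 in mice with at least 20 cells. Leaving out 1 mouse gave 18 to 61 genes, with 18 without hyperoxic P14 mouse 3. Of the 24 naive and quiescent genes and the 16 mitosis genes none was called, with medians of 0.10 and 0.21. Icos, a costimulatory receptor, rose by 1.89 ± 0.47, the nuclear receptor Nr4a3 by 1.20 ± 0.32, the peptide transporter Tap1 by 1.10 ± 0.27, Cxcr4 by 1.02 ± 0.29 and the integrin Itgal by 0.97 ± 0.24. Ubb (ubiquitin) fell by 0.87 ± 0.11, Rplp0 by 0.59 ± 0.09, Cd7 by 1.22 ± 0.33 and the TCR constant region Trbc2 by 0.55 ± 0.14. Whether development differed between oxygen levels is the same contrast as the difference of the hyperoxia effect between ages, given above.

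**Figure D5:**
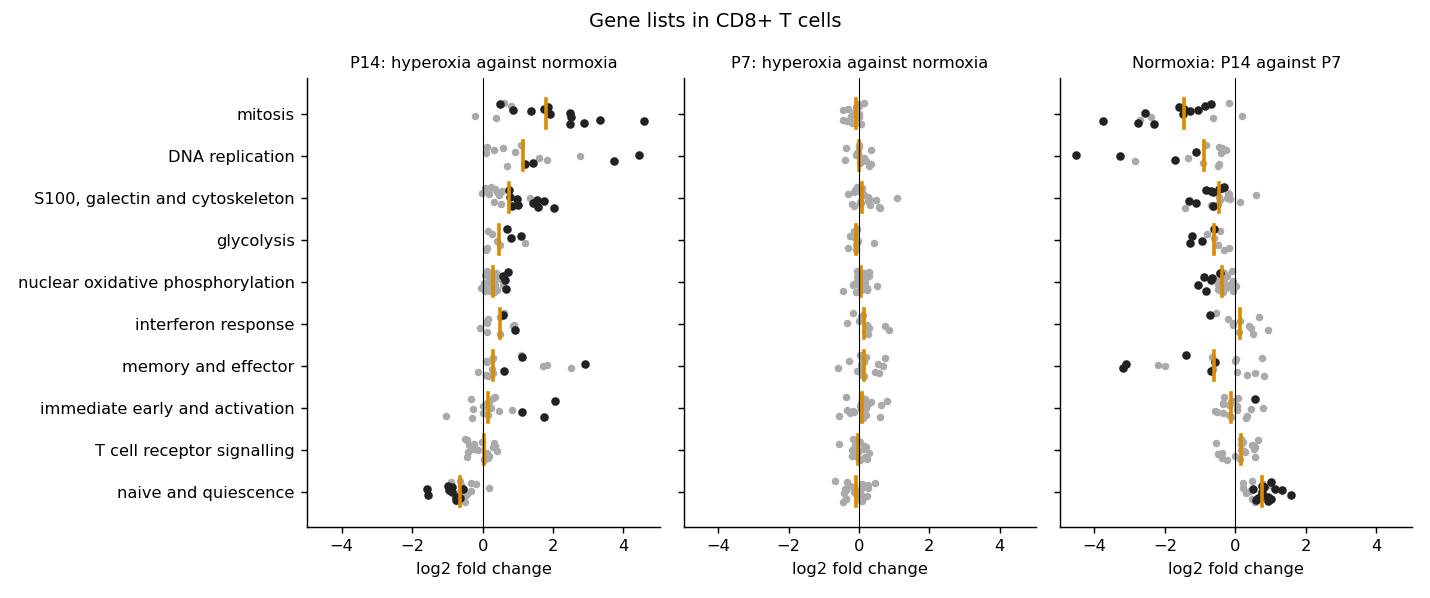
Log2 fold changes of the tested genes of 10 lists in CD8+ T cells, for hyperoxia against normoxia at P14 and at P7 and for P14 against P7 in normoxia, on a common axis. Points are genes (black, called; grey, not called) and orange lines are list medians; at P14 the mitosis median is 1.81 and the naive and quiescence median -0.65.

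The response was also compared with that of CD4+ T cells and B cells of the same mice, over P7 and P14 together. The effect of hyperoxia differed from that in CD4+ T cells for 2 of 2385 genes (0.0839%): Btg1 (difference of log2 fold changes -0.49 ± 0.10, adjusted p = 0.0153) and Tmsb4x, an actin-sequestering peptide (0.24 ± 0.05, adjusted p = 0.0362, edgeR with the mouse as a block). The count was 0 in mice with at least 20 cells of both types, and between 0 and 45 when 1 mouse was left out, with 45 without normoxic P7 mouse 3. S100a6 (1.10 ± 0.32), Tcf7 (-0.55 ± 0.13) and Lgals1 (0.66 ± 0.20) did not pass (adjusted p = 0.125, 0.081 and 0.125). Against B cells no gene of 2984 was called (0.0%), by DESeq2 none either, and 248 had an unadjusted p below 0.05. Stmn1 was called in CD4+ T cells at P14 as well (log2 fold change 2.35 ± 0.33, adjusted p = 6.9e-05, edgeR), where 25 of 3305 genes were called. H2afz (0.86 ± 0.14) and Hmgb2 (1.01 ± 0.22) were called there too. Mki67, Top2a, Birc5 and Cenpf had log2 fold changes of 3.3 to 3.5 there (adjusted p from 0.0004 to 0.026, edgeR), but too few cells had a UMI for a call. Ube2c and Pclaf (2.39 ± 0.80 and 2.41 ± 0.93) did not pass there.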

How the data were processed

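Single-cell RNA-seq libraries of MULTI-seq barcoded lungs were made with 10x Genomics 3' chemistry. Per the labels the reads were processed with Cell Ranger 3.0.2 and mm10. The deposited matrix holds UMI counts, not normalized, for 22100 genes and the cells that the authors kept and annotated, which were fewer cells than the study states. No doublets were called here. The deposited MULTI-seq barcode counts and the authors' percent of mitochondrial UMIs were not tested.

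UMIs of the CD8+ T cells were summed per mouse (at least 10 cells, 21 mice) and tested with edgeR 4.0.16 (TMM, filterByExpr, quasi-likelihood) in R 4.3.3, with DESeq2 1.42.0 as an alternative. The fit at P7 and P14 used group means of all 21 mice, so that the groups share one estimate of the spread. P-values were adjusted by Benjamini-Hochberg over all genes tested. Shares were compared over mice by exact permutation tests (scipy 1.17.1). Each mouse is a separate animal. Intervals and limits of zero counts (3 counts) cover counting error only. Cells were thinned at random to 1000 UMIs, which left out 22 cells. Scripts were tested on simulated data.

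The pool was used as a replicate block only in alternatives. Deviations from group means had a median correlation of 0.049 between mice of a pool at different oxygen levels and of -0.0445 between pools. Genes to name were, among called genes of average log2 CPM 5 or more, the top 10 by log2 fold change in each direction, every called list member and a fixed set of T cell genes, of which a member is not reported here. Not all of them are printed, and the rest stand in counts, medians and ranges. Genes outside this rule were chosen after their values were seen. The members and lists were chosen with earlier results of these data known. Alternatives changed the filter, tool, block, cells per mouse, thinning and the cells included; P14 mice alone, and cells without gamma delta or NK transcripts (for shares, cycling cells and expression, and for the first 2 also with the transcripts read in thinned cells), were chosen after seeing the data.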

Additional observations from a re-analysis of the deposited data

Results flagged for a closer look

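In groups of 4 to 6 mice, 10 of 108 sets of values held a mouse far from the others. The rule used assumes normal values, which was not tested here, so no rate by chance is given. In hyperoxic P3 mouse 6, CD8+ T cells were 0.0% of CD4+ and CD8+ T cells. In normoxic P7 mouse 3, 25.0% of the cells of the cluster were cycling and Ifng stood at 448.7 CPM. Without the cells with gamma delta or NK transcripts that mouse kept 7 cells, 1 of them cycling. Hyperoxic P14 mouse 3, with the fewest CD8+ T cells of its group, was high for Cd8a (641.7 CPM), Eomes (103.5 CPM) and Mki67 (538.2 CPM). Ly6c2 was high in hyperoxic P7 mouse 3 (961.0 CPM), Cd3e in normoxic P14 mouse 6 (368.4 CPM), Gzmb in normoxic P14 mouse 5 (68.49 CPM) and Hbb-bs in normoxic P14 mouse 3 (2539.0 CPM).

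Hyperoxia had a larger log2 effect at P14 than at P7 on Ube2c (difference 4.923), Pclaf (4.55), Stmn1 (2.614) and Lgals1 (1.489). No gene was called for this difference in thinned cells, in mice with at least 20 cells or in any of the 3 selections of cells, and leaving out 1 mouse gave 2 to 26 genes. Its effect differed between CD8+ and CD4+ T cells for Tmsb4x (0.2396) and Btg1 (-0.492). All 6 differences were tested with edgeR's quasi-likelihood test over all genes.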

How the results depend on the processing

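The expression results rest on 10 to 80 cells per mouse, and the causes of the changes below were not tested. Over both ages 9 genes were called; there were 23 with DESeq2, 57 without the filter on low counts, 14 with the pool as a block, 3 with mice of at least 5 cells and 33 with at least 20, 2 without cycling cells, 17 without cells with gamma delta or NK transcripts and 4 without the age covariate. At P14 the 121 genes became 192 with the pool as a block, 52 with mice of at least 20 cells, 13 in thinned cells and 8 without cycling cells. They became 36 in cells with a Cd8a or Cd8b1 UMI and 45 without cells with gamma delta or NK transcripts. DESeq2 called 111, 83 higher and 28 lower. In mice of at least 20 cells 119 of the 121 were tested, all in the same direction, with a median size of 0.852 against 0.860. At P7 the 0 genes became 4 without the filter, 4 with the block and 4 without cells with gamma delta or NK transcripts. For the difference between ages the 4 genes became 10 with DESeq2, 27 without the filter, 21 with the block, and 0 in mice of at least 20 cells, in thinned cells and in each selection of cells. Between P14 and P7 in normoxia the 294 became 185 without the filter, 71 with mice of at least 20 cells, 9 in thinned cells, 7 without cycling cells, 98 in cells with a Cd8a or Cd8b1 UMI and 39 without cells with gamma delta or NK transcripts. In hyperoxia the 54 became 32, 3 and 6 in the first 3 of these, and 24 in cells with a Cd8a or Cd8b1 UMI. Against CD4+ T cells the 2 became 9 without the filter, 12 with DESeq2 and 0 in mice of at least 20 cells of both types, and against B cells the 0 became 23 without the filter.

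Leaving out 1 mouse at a time gave 7 to 86 genes over both ages, 66 to 154 at P14, 0 to 4 at P7, 2 to 26 for the difference between ages, 104 to 290 and 18 to 61 between P14 and P7 in normoxia and hyperoxia, 0 to 45 against CD4+ T cells and 0 to 43 against B cells. Normoxic P7 mouse 3 gave the 86, 104, 45, 43, the 2 for the difference between ages and 4 at P7, and normoxic P7 mouse 4 the 26. Of the 16 cells of normoxic P7 mouse 3, 7 had no gamma delta or NK transcripts. Over both ages the count was 17 without normoxic P7 mouse 6, 19, 14 and 20 without hyperoxic P7 mice 1, 2 and 6, and 14 without hyperoxic P14 mouse 4. At P7 it was 4 without normoxic P7 mouse 6 and 1 without normoxic P14 mouse 3. The difference between ages was called for 12 genes without hyperoxic P7 mouse 4, 7 and 9 without normoxic P14 mice 4 and 5, and 11, 7 and 7 without hyperoxic P14 mice 1, 2 and 6. Against CD4+ T cells 12 of the mice moved the count of 2, and against B cells 6 mice moved the count of 0. The P14 count was 70, 72 and 69 without normoxic P14 mice 1, 2 and 3, and 69 and 66 without hyperoxic P14 mice 2 and 5. The count in normoxia was 184 and 158 without normoxic P14 mice 2 and 3. The count in hyperoxia was 25, 31 and 28 without hyperoxic P7 mice 1, 2 and 3, and 24, 31, 18 and 32 without hyperoxic P14 mice 1 to 4. Of the 121 genes at P14, 36 were called in all 21 such fits.

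Signs turned for Atp5j over both ages in thinned cells (-0.0038); without cycling cells for H2afz (-0.13) and Tubb5 (-0.21) at P14, and for Hbb-bs (0.58), Hspa8 (0.055) and Tubb5 (0.15) between ages in normoxia; and for Gzma (1.08) between ages in normoxia without cells with gamma delta or NK transcripts. Without cells with gamma delta or NK transcripts the oxygen difference in cycling cells was 8.60 points at P14 and no longer passed, and 0.307 at P7, and that in the share of CD8+ T cells at P14 was -0.760 points and passed. With these transcripts read in thinned cells the cycling difference was 7.82 points at P14 and did not pass, and 0.201 at P7, the share difference at P14 was -0.622 points and did not pass, and that between P7 and P3 in normoxia was 0.854 points and passed. As percent of T cells the oxygen difference was -2.72 points at P7 and 1.94 at P14, and as percent of lymphoid cells 0.600 at P14. P14 minus P7 was -0.224 points of T cells in normoxia, and in hyperoxia 4.43 of T cells, 0.788 of lymphoid cells and 0.0220 of all cells without the mouse with the fewest cells. Differences from P3 no longer passed as percent of T cells for P7 in hyperoxia (7.63) and for P14 in normoxia (2.84) and hyperoxia (12.1), nor as percent of lymphoid cells for P14 in normoxia (4.17). No paired analysis was possible because no pool held both P7 and P14 mice, for the comparisons of these ages.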

Other observations

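Some values belong to no comparison above. At P3, 6 of 36 normoxic and 8 of 24 hyperoxic cells of the cluster, thinned to 1000 UMIs, were cycling (16.7% and 33.3%), with 95% exact intervals of 6.37 to 32.8% and 15.6 to 55.3%. Only 36.1% and 20.0% of the P3 cells of the cluster had a UMI of Cd8a or Cd8b1, and no test was made.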
